A study of Mus musculus with 6 samples.

Results

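The genes described here are 10 genes of Leydig cells, the androgen-producing cells that lie between the seminiferous tubules of the testis. They were listed by name as genes of steroid synthesis and hormone response, by no threshold on a measured value, though with earlier results of these data known: Star, Cyp11a1, Hsd3b1, Hsd3b6, Cyp17a1, Hsd17b3, Hsd11b1, Tspo, Insl3 and Lhcgr. Array probes were assigned to them through the transcript accession that the array gives for each probe, which matched 9 of the 10 genes with 10 probes, out of 19751 genes named in this way. No probe was matched to Insl3, which is not analysed here. Star had a pair of probes and each other gene had 1. RNA came from the whole testis of 3 TAp73 knockout and 3 wild type mice, all C57BL/6J males at 10 weeks of age, with 1 array for each sample; the labels do not say more on how the samples were taken, and p-values measure the spread between them. TAp73 denotes the products of Trp73, a relative of the tumour suppressor p53, that carry the transactivation domain; the labels do not say which exons were removed or whether a Cre line was used. All 10 probes were well above background on all 6 arrays, and none was saturated, so the Leydig cell genes were measurable in every testis.

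Leydig cells make testosterone from cholesterol under the control of luteinizing hormone (LH) from the pituitary. LH binds its receptor, cAMP rises, and cholesterol is carried to the inner mitochondrial membrane, where the side chain is cut. The product is then converted step by step in mitochondria and endoplasmic reticulum to testosterone, which acts through the androgen receptor on Sertoli cells, the nurse cells of the germ line. In adult mouse Leydig cells the 3-beta-hydroxysteroid dehydrogenase step is shared by a pair of close relatives, Hsd3b1 and Hsd3b6.

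These relatives lie close together in the same orientation on chromosome 3, and their differences between knockout and wild type had opposite signs. Their upstream windows are therefore shown with that of Hsd11b1, the gene with the largest difference among the 9. Each runs 5′ to 3′ over the 250 bases before the annotated start, from RefSeq on build GRCm38.p6, and all are on the minus strand. RefSeq windows were matched for 7 of the 10 genes.
Hsd3b1, chr3:98859795-98860044: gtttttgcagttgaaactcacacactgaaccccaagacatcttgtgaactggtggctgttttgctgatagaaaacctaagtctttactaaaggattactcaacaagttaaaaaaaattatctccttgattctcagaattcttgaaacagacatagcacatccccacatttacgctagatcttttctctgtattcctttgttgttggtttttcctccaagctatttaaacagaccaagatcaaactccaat
Hsd3b6, chr3:98814444-98814693: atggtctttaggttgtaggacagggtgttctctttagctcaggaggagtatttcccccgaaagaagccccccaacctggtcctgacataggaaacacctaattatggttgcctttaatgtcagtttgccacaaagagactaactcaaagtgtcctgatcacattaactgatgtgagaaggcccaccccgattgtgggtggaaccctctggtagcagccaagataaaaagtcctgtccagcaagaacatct
Hsd11b1, chr1:193242361-193242610: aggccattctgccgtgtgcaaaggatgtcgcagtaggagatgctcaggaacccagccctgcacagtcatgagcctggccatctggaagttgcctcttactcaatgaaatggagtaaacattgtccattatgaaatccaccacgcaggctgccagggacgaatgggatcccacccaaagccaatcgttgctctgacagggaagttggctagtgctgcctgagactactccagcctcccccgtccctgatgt
The windows of Hsd3b1 and Hsd3b6 shared 111 of 250 bases (44.4%) in a global alignment. Both strands of the 8 windows (Cyp11a1 has a pair of annotated starts) were searched for 3 motifs: CAAGGNC, a core bound by the steroidogenic factor Nr5a1, TGACGTCA, the cAMP response element, and the p53 half-site. None of these was found in the 3 windows shown, so no base is in capitals. Over all 8 windows, the Nr5a1 core was found in that of Insl3 alone, against 15.0% of 32851 RefSeq windows of this length. The cAMP element was found in none of the 8, against 1.55% of all windows. The p53 half-site was found in that of Lhcgr alone, against 7.13% of all windows. A match or its absence is a description of these letters and says nothing of binding.

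Trp73 served as a check of the labels and not as a result, since its direction is what tells the opposing sets of genotype labels of the deposited files apart. Probe A_52_P193555 read 17.2, 4.81 and 5.17 units in the knockouts and 605, 548 and 587 in wild type under the scanner files' labels, which are used here, and cleared background on 1 knockout array of 3. Probe A_55_P1988133 read 39.1, 28.4 and 23.1 units in the knockouts and 378, 308 and 301 in wild type. Probe A_52_P410636 read 566, 371 and 394 against 1077, 975 and 1061, and cleared background on all 3 knockout arrays. As the removed exons are not stated, which probes lie inside the deletion is not known here. The deposited value table carries the opposite genotype labels for the same arrays, so under those labels every sign below turns. Per array, 74.4% to 84.4% of probes exceeded background clearly and 1.59% to 4.45% saturated. Knockout replicate 1 stood apart, scoring 66.2 on the leading principal component where the other 5 arrays scored -30.8 to 4.91. Over all 31801 tested probes 838 (2.64%) were lower and 79 (0.248%) higher, so 91.4% of calls were lower, against 80.0% under quantile normalization and 79.9% under median scaling. The 75th percentile used for scaling was lower in the knockouts by a log2 difference of -0.26.

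Of the 9 measured genes, 3 were lower in the knockout at an adjusted p under 0.05: the enzymes Hsd3b1 and Hsd11b1 and the mitochondrial membrane protein Tspo. None was higher. Before adjustment (limma p under 0.05), 4 were lower and 1 was higher, with Hsd17b3 as the added lower gene and Star as the higher one, where 13.6% of all genes were lower and 12.0% higher. Over all 16947 genes, each represented by its brightest probe, 3.53% were called lower and 0.218% higher. The median log2 difference of the 9 genes, knockout minus wild type, was -0.31, with a range of -0.84 to 0.63, against a median of 0.05 over all genes. The genes spread to both sides of 0. Without knockout replicate 1 the count called was 0, with Hsd3b1 at -0.80 (adjusted p = 0.0714), Hsd11b1 at -0.79 (adjusted p = 0.0765) and Tspo at -0.48 (adjusted p = 0.0792). In whole testis, fewer Leydig cells and less RNA per Leydig cell cannot be told apart.

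**Figure D1:**
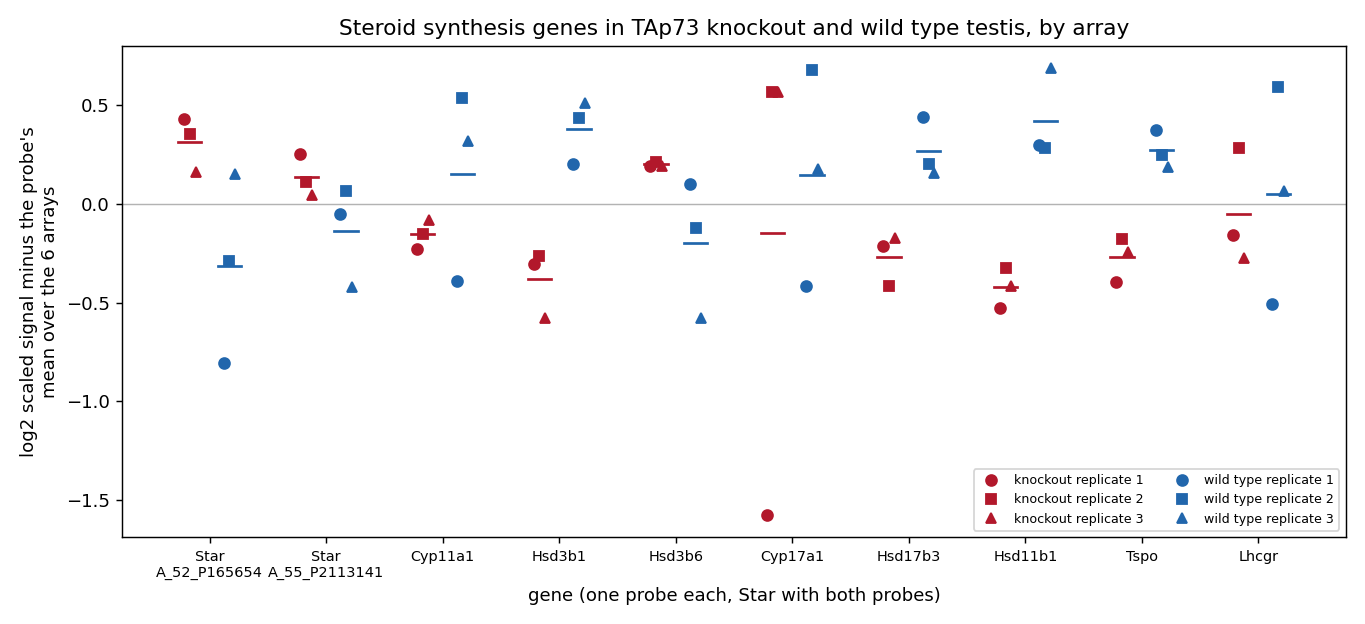
Log2 scaled signal of each gene (horizontal axis) minus its mean over the 6 arrays (vertical axis), with 3 knockout arrays left and 3 wild type arrays right of each position, marker shape giving the replicate number and short lines the group means. Hsd3b1, Hsd17b3, Hsd11b1 and Tspo lay lower in every knockout, Star (probe A_52_P165654) and Hsd3b6 higher, and Cyp17a1 was low in knockout replicate 1.

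Values below are scaled signals, given as a percentage of the 75th percentile of the probes on the same array, and are read only within a probe. Lhcgr, the LH receptor, stands at the head of the pathway. It read 3.11%, 4.23% and 2.87% in knockout replicates 1 to 3, and 2.45%, 5.24% and 3.64% in wild type replicates 1 to 3. The groups overlapped, and the wild type arrays held both the lowest and the highest value. The log2 difference was -0.10 (SE 0.29, 95% interval -0.81 to 0.61, limma adjusted p = 0.847), and its sign depended on the setting, as it was 0.28 within slide 1 and -0.87 in the pair of slide 2.

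Cholesterol transport into mitochondria involves Star, the acutely regulated transfer protein, and Tspo, an outer membrane protein whose part in steroid synthesis is debated and which is also made by macrophages and many other cells. Star probe A_52_P165654 read 115%, 109% and 95.2% in the knockouts, and 48.7%, 69.6% and 94.8% in wild type. The groups did not overlap, but the gap between the lowest knockout and the highest wild type was narrow. The log2 difference was 0.63 (SE 0.24, 95% interval 0.05 to 1.21, limma adjusted p = 0.197), which did not pass the test. The other Star probe, A_55_P2113141, read 18.3%, 16.6% and 15.9% in the knockouts and 14.8%, 16.1% and 11.5% in wild type, with overlapping groups and a difference of 0.27 (limma adjusted p = 0.282). Before scaling, the groups overlapped for A_52_P165654 too, at 4163 to 5914 units in the knockouts and 2773 to 5134 in wild type.

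Tspo moved the other way. It read 31.2%, 36.4% and 34.8% in the knockouts and 53.3%, 48.8% and 46.8% in wild type. Every knockout lay below every wild type. The log2 difference was -0.54 (SE 0.09, 95% interval -0.77 to -0.32, limma adjusted p = 0.0414), a level of 68.7% of wild type. With slide as a fixed block the difference was the same and the call was lost (adjusted p = 0.0918). It was -0.57 within slide 1 and -0.49 in the pair of slide 2.

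Cyp11a1, the side-chain cleavage enzyme that makes pregnenolone, read 273%, 288% and 302% in the knockouts, and 244%, 463% and 398% in wild type. The knockouts lay close together, inside the range set by wild type replicate 1 and the other wild types. Its difference was -0.31 (SE 0.23, 95% interval -0.87 to 0.26, limma adjusted p = 0.443). Without wild type replicate 1 it was -0.58, and without wild type replicate 2 it was -0.12.

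Hsd3b1, which converts pregnenolone to progesterone, fell. It read 494%, 508% and 409% in the knockouts, and 701%, 825% and 868% in wild type, and every knockout was below every wild type. The log2 difference was -0.76 (SE 0.12, 95% interval -1.07 to -0.46, limma adjusted p = 0.0369), a level of 58.9% of wild type. With slide as a fixed block the call was lost (adjusted p = 0.0791), and the difference was -0.64 within slide 1 and -1.01 in the pair of slide 2. Its relative Hsd3b6, an isoform of adult Leydig cells, read 100.4%, 102% and 100.2% in the knockouts and 94.2%, 80.6% and 58.7% in wild type. Each knockout exceeded each wild type, with wild type values spread widely and knockout values almost equal, and the difference of 0.40 (SE 0.17, 95% interval -0.02 to 0.82, limma adjusted p = 0.227) did not pass the test. Without scaling it was 0.14 and the groups overlapped.

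The rest of the same gene family was read from the list of other steroid enzymes. Hsd3b2 differed by 0.65 (limma adjusted p = 0.202) and Hsd3b4 by 0.26 (adjusted p = 0.301), while Hsd3b7, an enzyme of bile acid synthesis outside the cluster, differed by -0.37 (adjusted p = 0.123). Hsd3b3 was well above background on 1 array and Hsd3b5 on none, and neither was tested. The files used here give no probe sequences, so how far each probe reads only its own gene of this family is uncertain. These other genes were named after their values were seen.

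Cyp17a1, whose hydroxylase and lyase activities lead to androgens, read 295% in knockout replicate 1 against 1299.7% and 1300.5% in replicates 2 and 3, and 658%, 1406% and 991% in wild type. A single knockout array therefore stood far below all the others. The spot on that array carried no outlier mark, its signal before scaling was 15200 units against 53764 and 56889 in the other knockouts, and its local background was 75 units against 22.5 to 35 on the other arrays. The difference was -0.29 (SE 0.63, 95% interval -1.81 to 1.22, limma adjusted p = 0.79), and 0.42 (adjusted p = 0.444) without that array. The part of the local background in this value was not tested. In wild type replicate 2 the median signal of the spot was 62708 units, near the saturation value of 65527, though it was not marked as saturated. Whether this narrowed the difference was not tested.

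Hsd17b3, the testis enzyme that reduces androstenedione to testosterone, read 66.8%, 57.8% and 68.6% in the knockouts, and 105%, 88.8% and 86.3% in wild type. The groups did not overlap. The difference of -0.53 (SE 0.11, 95% interval -0.81 to -0.26) missed the threshold (limma adjusted p = 0.0658). It passed without scaling (-0.79, adjusted p = 0.0468) and among probes well above background on all 6 arrays (-0.53, adjusted p = 0.0486).

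Hsd11b1, which interconverts active and inactive glucocorticoids and is made in Leydig cells and many other cells, fell most among the 9 genes. It read 4.11%, 4.72% and 4.44% in the knockouts, and 7.27%, 7.19% and 9.52% in wild type. All knockouts lay below all wild types. The log2 difference was -0.84 (SE 0.13, 95% interval -1.16 to -0.53, limma adjusted p = 0.032), a level of 55.7% of wild type. This probe is printed in 10 spots on each array. Spot signals ran from 182 to 225 units over the knockout arrays and from 349.97 to 568 units over the wild type arrays, so that no spot of a knockout reached the lowest spot of a wild type. The SD over spots of an array was 0.05 to 0.08 in the knockouts and 0.04 to 0.06 in wild type on the log2 scale. Spots of 1 array are technical repeats, and n stays 3 mice in each group. Under normexp background correction the difference was -0.23 (adjusted p = 0.681), where the median of all tested probes was 0.22. With slide as a fixed block the call was lost (adjusted p = 0.0739), and the difference was -0.92 within slide 1 and -0.70 in the pair of slide 2.

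By position of the groups alone, 4 of the 9 genes were lower in every knockout than in every wild type (Hsd3b1, Hsd17b3, Hsd11b1 and Tspo), where 16.0% of all genes were. Star and Hsd3b6 were higher in every knockout, where 19.2% of all genes were. Under normexp the counts were 3 lower and 0 higher, and without scaling 4 lower and 0 higher. The other 3 genes, Lhcgr, Cyp11a1 and Cyp17a1, overlapped between groups.

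**Figure D2:**
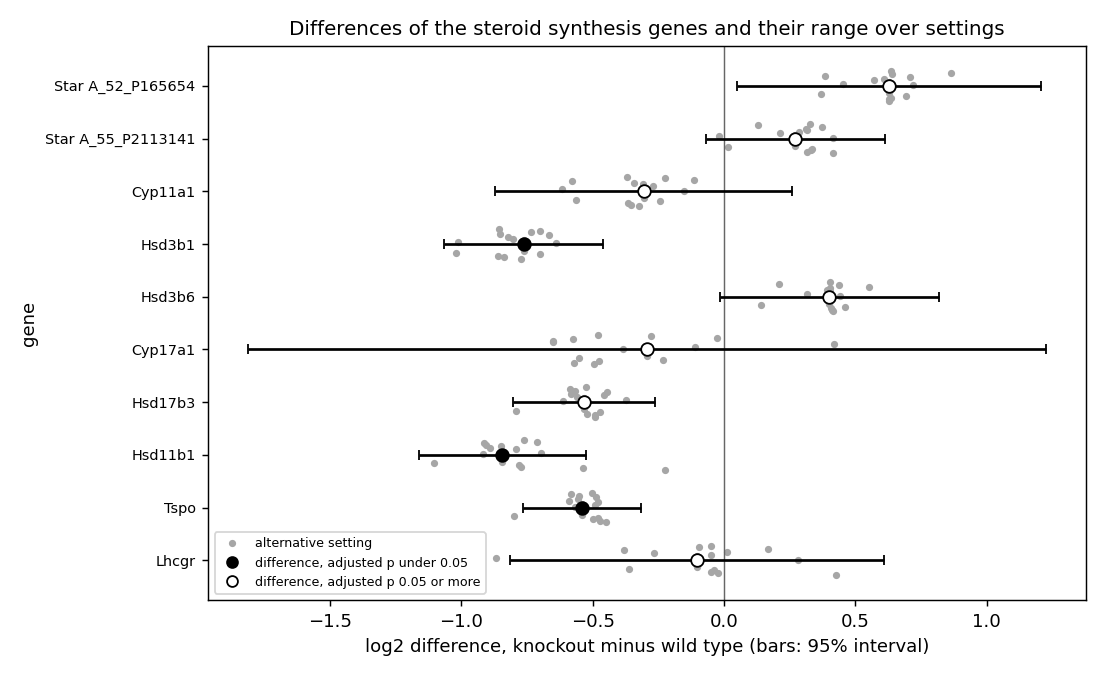
Log2 difference, knockout minus wild type (horizontal axis), for each probe (vertical axis), with its 95% interval; filled points passed an adjusted p of 0.05, and grey points are the values under 20 alternative settings. Hsd3b1 stayed between -1.02 and -0.64 and Tspo between -0.80 and -0.45, while the interval of Cyp17a1 spanned -1.81 to 1.22.

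Whether the genes changed by unequal amounts was asked within each array, where scaling cancels. The log2 signal of Star probe A_52_P165654 was subtracted from that of each other gene, and that of Hsd3b6 from that of Hsd3b1, giving 9 pairs. The other Star probe, A_55_P2113141, was not used in these pairs. Relative to that other probe, Cyp11a1 overlapped between groups, while Hsd3b1, Hsd11b1, Tspo and Hsd17b3 did not. Relative to Star, Hsd3b1 was lower by a log2 difference of -1.39, Hsd11b1 by -1.47, Tspo by -1.17, Hsd17b3 by -1.16 and Cyp11a1 by -0.94, and in each of these pairs the knockouts and wild types did not overlap. Each had an exact two-sided permutation p of 0.1, the smallest that 3 against 3 samples allow, and 0.15 adjusted over the 9 pairs, so the design cannot reach 0.05. The same separation from Star was seen for 41.6% of all genes. Lhcgr (-0.73, exact p = 0.2), Cyp17a1 (-0.92, exact p = 0.5) and Hsd3b6 (-0.23, exact p = 0.7) overlapped between groups relative to Star. Hsd3b1 relative to Hsd3b6 averaged 2.22 ± 0.16 in the knockouts and 3.38 ± 0.50 in wild type on the log2 scale (SD, n = 3 each), a change of -1.16 (exact two-sided permutation p = 0.1, adjusted 0.15) with no overlap. The same separation from Hsd3b6 was seen for 35.8% of all genes. This change lay between -1.41 and -0.91 over the settings in which it was recomputed.

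**Figure D3:**
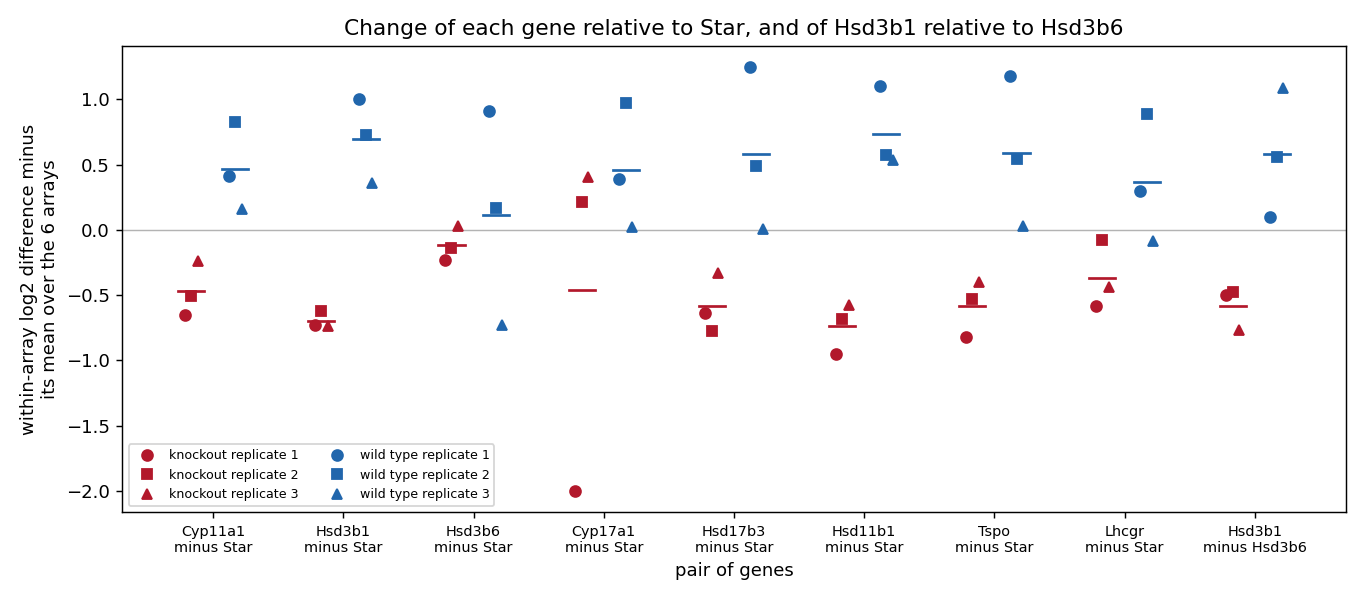
Within-array log2 difference between the genes of each pair (horizontal axis), minus its mean over the 6 arrays (vertical axis), with knockout arrays left, wild type arrays right, marker shape giving the replicate and short lines the means. The groups separated for Cyp11a1, Hsd3b1, Hsd17b3, Hsd11b1 and Tspo relative to Star (probe A_52_P165654) and for Hsd3b1 relative to Hsd3b6. They overlapped for the other 3 pairs.

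Averaged over the 9 genes after centring each, the log2 level was -0.31, 0.01 and -0.09 in knockout replicates 1 to 3, and -0.08, 0.28 and 0.19 in wild type replicates 1 to 3. Wild type replicate 1 fell among the knockouts on this average. The SD between genes on 1 array was 0.35 to 0.56 in the knockouts and 0.32 to 0.45 in wild type. Cyp11a1 followed the mean of the other 8 genes most closely over the 6 arrays (Pearson r = 0.78), and Star (r = -0.47) and Hsd3b6 (r = -0.76) ran against it. These correlations are descriptions over 6 arrays that share genotype and scaling. The non-member genes whose levels followed the average most closely were S100b (r = 0.999), Ptrh2 (r = 0.995), Zfp566 (r = 0.993), Ephb4 (r = 0.991) and Sh3tc1 (r = 0.991), picked from 16938 genes over 6 arrays. None of the 5 passed the test (limma adjusted p = 0.217 to 0.453).

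Around the 9 genes, 8 lists named 120 pathway genes, of which 3 had no probe and 10 no tested probe; of the others 6 fell, 0 rose and 101 did not pass (35 lower and 6 higher before adjustment in limma). Over all genes, 3.53% were called lower and 0.218% higher, and 13.6% were lower and 12.0% higher before adjustment in limma. The median difference of the tested pathway genes was -0.11, against 0.05 over all genes. With slide as a fixed block Rgs2 alone of the 6 stayed called (limma adjusted p = 0.0487; the other 5 had 0.0756 to 0.0919), and none of the 6 was called without knockout replicate 1 (limma adjusted p = 0.0738 to 0.0877). In LH signalling 1 of 12 genes fell, Rgs2, a regulator that dampens G protein signals. It read 6893, 5204 and 6243 units before scaling in the knockouts and 11130, 11180 and 10160 in wild type (log2 difference -0.57, limma adjusted p = 0.0318). The list's median was -0.01, and -0.07 without 2 probes saturated on some array. Leydig transcription regulators had 0 of 12 called (7 lower and 0 higher before adjustment in limma), with a median of -0.29. Gata4 and Wt1, both among the 7, are also in the list of Sertoli cell markers below, so these lists are not separate. Among the 12 regulators Nr2f2, a transcription factor of interstitial progenitor cells, differed by -0.60 (adjusted p = 0.0731). Nr5a1 itself, the main activator of steroidogenic genes, differed by -0.11 (adjusted p = 0.411).

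Cholesterol delivery genes had 0 of 14 called (4 lower and 0 higher before adjustment in limma) and a median of -0.11. Soat1, which esterifies cholesterol (-0.39, adjusted p = 0.0763), and Vdac1, a channel of the outer mitochondrial membrane (-0.35, adjusted p = 0.1), had the smallest p-values. Among 7 electron donors and their partners 1 fell, H6pd (-0.50, adjusted p = 0.0414), which supplies the reducing cofactor used by Hsd11b1 in the endoplasmic reticulum. The median of these was -0.21. Of 21 other steroid enzymes 2 fell, Hsd17b11 (-0.87, adjusted p = 0.0375) and Hsd17b12 (-0.43, adjusted p = 0.0426), members of the hydroxysteroid dehydrogenase family that act largely on other steroids or lipids, and the list's median was -0.03.

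Of 16 hormone receptors 1 fell, Pdgfra, a growth factor receptor of interstitial precursor cells (-0.79, adjusted p = 0.0341). The median was -0.06, and -0.11 without 1 probe saturated on some array. Of 7 androgen-dependent Sertoli genes 1 fell, the dehydrogenase Gpd1 (-0.48, adjusted p = 0.0388), and the median was -0.39. Before adjustment in limma, that list had 4 genes lower and 1 higher. The higher gene, the claudin Cldn3, differed by 0.72 (limma adjusted p = 0.0628) and was higher in every knockout. The homeobox gene Rhox5, a standard readout of androgen action in Sertoli cells, differed by -0.44 (limma adjusted p = 0.0774) and was lower in every knockout. Other adult and fetal Leydig genes had 0 of 18 called (3 lower and 1 higher before adjustment in limma) and a median of 0.05. Of these 18 probes, 6 were saturated on at least 1 array, where a difference cannot be read, and the median of the other 12 was -0.13. Its smallest p-values were those of Spp1 (-2.03, adjusted p = 0.0644), a secreted phosphoprotein also made by macrophages, and the inhibin subunit Inha (-0.31, adjusted p = 0.0931), which Sertoli cells make too. Gata4, Wt1, Nr5a1, Cldn3 and Rhox5 were named after their values were seen.

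**Figure D4:**
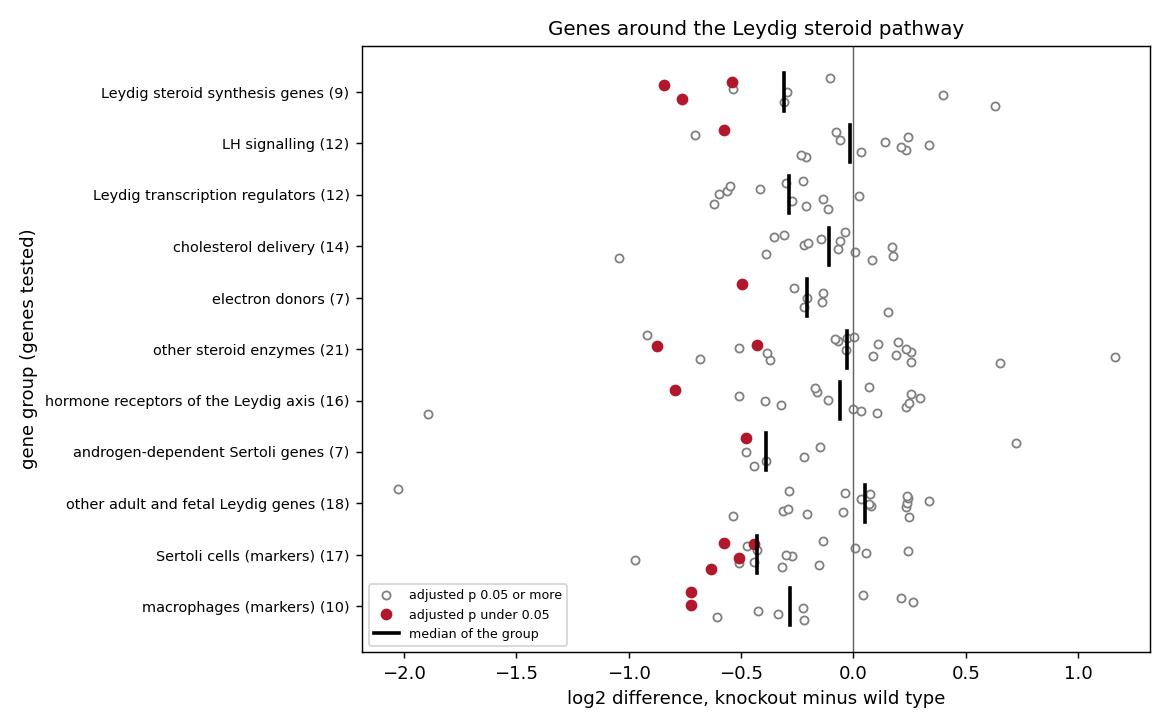
Log2 difference, knockout minus wild type (horizontal axis), of every tested gene in the 9 Leydig steroid synthesis genes, the 8 pathway lists and the Sertoli cell and macrophage markers (vertical axis); filled points passed an adjusted p of 0.05 and black bars are medians. Medians ran from -0.43 for Sertoli cell markers to 0.05 for other adult and fetal Leydig genes, whose median was -0.13 without the 6 probes saturated on some array.

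Some markers of other cells moved in the same arrays. For scale, 3.53% of all genes were called lower and 0.218% higher. Among Sertoli cell markers 4 of 17 fell (Sox9, Vim, Aard and Gata1, log2 differences -0.64 to -0.44, limma adjusted p = 0.0186 to 0.0464) and 0 rose. Leaving out 2 probes saturated on some array, their scaled signals summed on each array to 2719% to 2814% in the knockouts and 3664% to 3897% in wild type. Of the 15, 11 were lower in every knockout, where 16.0% of all genes were. Gata4, Wt1, Fshr and Rhox5 of this list are also in the pathway lists, and Fshr was named after its value was seen. Among macrophage markers 2 of 10 fell (Cd14 and C1qc, both -0.72, limma adjusted p = 0.01 and 0.0198) and 0 rose. Without 1 saturated probe their sum was 340% to 382% in the knockouts and 459.99% to 502% in wild type. Of the 9, 5 were lower in every knockout, against the same 16.0% of all genes. Saturated probes were left out of these sums after seeing the data. Myoid cell markers had 1 of 10 lower, Smtn (-0.56), endothelial markers 1 of 10, Robo4 (-2.80), and epididymal markers 1 of 7, Spink8 (-1.11), with 0 higher in each. Without probes saturated on some array, the medians of these lists were 0.02, -0.07 and -0.29. Of their markers, 1, 2 and 2 were lower in every knockout (16.0% of all genes), and 1, 1 and 0 higher (19.2%). Of 12 listed epididymal genes, those not tested were well above background on 0 or 1 array. Markers of adrenal cortex, the other main steroid-making tissue, had 0 of 4 called (2 lower and 0 higher before adjustment in limma) and summed to 59.8% to 73.1% in the knockouts and 78.4% to 100.1% in wild type. Of its 6 genes, named here after their values were seen, Mc2r was well above background on 0 arrays and Cyp11b2 on 1. Cyp11b1 was so on 3 and went the other way (1.16, limma adjusted p = 0.409). Cyp21a1 (-0.68, limma adjusted p = 0.0635), Akr1b7 (-1.65, adjusted p = 0.134) and Mrap (-0.20, adjusted p = 0.565) were so on all 6. Of 13 germ cell markers 0 were called (0 lower and 6 higher before adjustment in limma), but 9 were saturated on 3 or more arrays and cannot show a difference. The other 4 had a median of 0.15 and summed to 1863% to 1956% in the knockouts and 1619% to 1770% in wild type. Of these, 2 were higher in every knockout, where 19.2% of all genes were. Fat (0 of 6) and blood (0 of 4) markers had medians of 0.37 and -0.31. The part of these cells in the differences of the Leydig genes was not tested.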

How the data were processed

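Whole testis RNA of 6 mice was labelled with Cy3 from 200 ng per array, per the labels' protocols. Per the file headers, the authors' deposited scanner output came from Feature Extraction 10.7.3.1, on a design of build mm9 (4 arrays on slide 1, 2 on slide 2), and hold linear spot intensity. The authors also deposited a value table of linear intensity, with medians of 554.0 to 554.2; no source used here gives its normalization, and the submitters' processing notes name limma.

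The labels of the table oppose those of the scanner files. Each scanner file matched, at r = 0.97 to 0.99 over probes, a table column of the other genotype, and the column of its own label at -0.40 to -0.27. The scanner files' labels were used; under the table's own labels every difference changes sign.

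Here control spots and outlier spots were left out, the log2 processed signal was averaged over the spots of each of 39429 probes, and scaled by subtracting the 75th percentile of its array. Probes well above background on at least 3 arrays, with at least 2 values in each group, were tested: 31801. Differences are knockout minus wild type from limma 3.58.1 in R 4.3.3 (lmFit, eBayes, two-sided, group only), with Benjamini-Hochberg adjustment over all tested probes and 0.05 as the threshold. A gene's counts rest on its brightest complete probe. The number of arrays limits the precision. Names come from RefSeq GRCm38.p6 by accession, for 26055 probes. The genes and lists were chosen with earlier results of these data known. Named genes are all members, up to 4 called genes of each list or the 2 with the smallest p in a pathway list without calls, Trp73, and the 5 genes most like the average; other names are marked as such, and 1 gene that this rule names is not reported here. Normexp (offset 50) used the median spot signal, since the files hold no mean. The fit was tested on simulated data. Of 50 probes given a log2 change of 0.5 in either direction, 7 were called, and of 50 given a change of 1, 36 were called. There were 9 false calls among the probes left unchanged. A difference that did not pass is therefore not shown to be absent. The pair of arrays on slide 2, list medians and sums without saturated probes, and the turned sign of the value table, were added as alternatives after seeing the data. Alternatives covered background, scaling, filter, saturation, slide, pairing, left-out arrays and the value table. Same-numbered arrays of the groups correlated at -0.09 to -0.03 in their deviations. With 3 arrays in each group, this cannot decide whether the numbers pair the mice.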

Additional observations from a re-analysis of the deposited data

How the results depend on the processing

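Over 20 alternatives, Hsd3b1 (-1.02 to -0.64), Hsd11b1 (-1.10 to -0.23), Tspo (-0.80 to -0.45), Hsd17b3 (-0.79 to -0.37) and Cyp11a1 (-0.62 to -0.12) stayed below 0, and Hsd3b6 (0.14 to 0.55) and Star probe A_52_P165654 (0.37 to 0.86) above 0; of 19 refits, Hsd3b1 was called in 8, Hsd11b1 in 7 and Tspo in 6. No fit with 1 array left out kept all 3 calls, and such fits gave 0 to 1 members lower. Hsd3b1 alone was called without wild type replicate 1 (limma adjusted p = 0.0499), and no member was called without any other array. Members called lower numbered 0 under normexp, normexp with quantile normalization, no filter, slide as a fixed block, slide 1 alone and the replicate block (limma; 3 or 4 lower before adjustment). The count of members higher was 0 throughout.

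Lhcgr lay above 0 under normexp (0.43), within slide 1 (0.28) and without knockout replicate 3 (0.01) or wild type replicate 2 (0.17), Cyp17a1 without knockout replicate 1 (0.42), and Hsd3b6 relative to Star without wild type replicate 1 (0.17). Leaving out 1 array at a time, Lhcgr ran from -0.38 to 0.17, Cyp17a1 from -0.65 to 0.42 and Hsd3b6 relative to Star from -0.65 to 0.17. Under normexp Soat1 (0.0082), S100b (0.031), Ptrh2 (0.21), Zfp566 (0.027), Ephb4 (0.11) and Sh3tc1 (0.14) turned above 0, as did Ptrh2 under normexp with quantile normalization (0.0041), while the median of all tested probes was 0.22 under normexp and -0.20 without scaling. The cause was not tested.

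Of 838 lower and 79 higher probes, the counts were 0 and 0 under normexp (limma; 810 lower and 1075 higher before adjustment), 405 and 91 under normexp with quantile normalization, 868 and 217 under quantile normalization, 569 and 143 under median scaling, 2043 and 13 without scaling, 349 and 13 without the filter, 1109 and 165 among probes above background on all arrays, 299 and 15 with slide fixed, 672 and 39 with slide random, 0 and 0 in slide 1 alone (limma; 1809 and 1332 before adjustment), 876 and 216 in the value table with its sign turned, and 116 to 420 and 7 to 28 leaving out 1 array. With the replicate block they were 9 and 1, and whether the replicate numbers pair the mice is not known here.

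Pathway genes called lower, 6 in the fit given above, numbered 0 under normexp, without the filter, in slide 1 alone and with the replicate block (limma), 2 under normexp with quantile normalization and under median scaling, 1 with slide fixed, 16 without scaling and 0 to 4 leaving out 1 array. The count higher was 1 among probes above background on all arrays. This was the claudin Cldn3 of the androgen-dependent Sertoli genes, named after its value was seen (0.72, limma adjusted p = 0.0442).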
